A study of Mus musculus with 9 samples.

Results

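Peaks of the chromatin remodeling proteins PBRM1 and BRG1 were examined at 9 mouse genes for receptors of contractile agonists: the oxytocin receptor *Oxtr*, the endothelin receptors *Ednra* and *Ednrb*, the angiotensin II receptor *Agtr1a*, the vasopressin receptor *Avpr1a*, the muscarinic acetylcholine receptors *Chrm2* and *Chrm3*, and the tachykinin receptors *Tacr1* and *Tacr2*. These are 9 of 21938 protein-coding genes, taken by name. For each gene, every peak whose summit lay in the gene body or within 20 kb of it was collected from the replicate lists, and peaks that shared at least 1 bp were merged into a region. The windows of the 9 genes held 30 of the 82959 regions in the genome, and none of the 9 windows was without a region, where 19.4% of the windows of protein-coding genes were. Length was not matched in this comparison. The 9 windows were 44.95 to 525.4 kb long, beside a median of 57.4 kb over all protein-coding genes. A region was called a promoter region when its summit was within 2 kb of an annotated start of that gene, which applied to 11 regions, and distal otherwise, which applied to 19.

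ChIC-Seq (chromatin immunocleavage sequencing) uses an antibody to carry protein A-micrococcal nuclease to its target in fixed cells, and the fragments cut there are sequenced. It was performed on primary oviductal muscle cells from WT mice 8 to 12 weeks old on day 2 of pregnancy, which were digested from oviduct, filtered, kept in culture for hours and fixed with formaldehyde. There were 3 replicates with an antibody to PBRM1, a subunit of the PBAF form of SWI/SNF, and 3 with an antibody to BRG1, the ATPase motor of SWI/SNF. The labels also list 3 IgG samples, which were not analysed here, so no value below has a background measured with IgG. All samples share the WT genotype and the day, so the comparison is between antibodies and not between conditions. The labels do not say whether replicates came from separate mice or preparations, so a p-value measures the spread between these libraries, which may be technical.

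All 9 receptors are G protein-coupled. *Oxtr*, *Ednra*, *Ednrb*, *Agtr1a*, *Avpr1a*, *Chrm3*, *Tacr1* and *Tacr2* encode receptors that couple mainly to the Gq family, through which phospholipase C releases calcium and drives contraction of smooth muscle, while *Chrm2* encodes a receptor that couples to Gi and lowers cyclic AMP. The muscle of the oviduct contracts under such agonists and thereby takes part in moving the embryo toward the uterus. SWI/SNF complexes slide or evict nucleosomes at promoters and enhancers. A peak shows that the antibody-directed cutting was enriched at a site, and neither RNA nor receptor protein was measured in these files.

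The sequences below are those of the best-supported sites, shown so that the base composition behind the results can be read. They come from the GRCm38 reference, 5′ to 3′ on the strand given, in lower case, with matches to any of the motifs searched in capitals. The motifs were searched on both strands. The letters TGANTCA stood for the sites of AP-1, which is the dimer of Fos and Jun proteins. The letters GGAATG stood for the sites of TEAD, which works with the Hippo pathway. The letters AGATAA were used to find the sites of GATA proteins, and for the sites of the RUNX family the letters were TGTGGTT. Promoter elements were read as GGGCGG for the GC box bound by Sp proteins, as TATAAA for the TATA box bound by the general transcription machinery, and as TGACG for the CRE half-site bound by CREB proteins. NFI, a palindromic steroid receptor element and the CArG box, which binds serum response factor, were searched too. The GC box, TATA box and CRE half-site were added after the printed windows had been seen. The first 3 sequences are the distal regions with peaks in 5 or 6 of the 6 lists, with 100 bp on each side of the summit: Chrm2, past the end of the gene, chr6:36541376-36541576, plus strand, then Ednra, intron, chr8:77711877-77712077, minus strand, then Agtr1a, intron, chr13:30368740-30368940, plus strand.
Chrm2 past the gene end: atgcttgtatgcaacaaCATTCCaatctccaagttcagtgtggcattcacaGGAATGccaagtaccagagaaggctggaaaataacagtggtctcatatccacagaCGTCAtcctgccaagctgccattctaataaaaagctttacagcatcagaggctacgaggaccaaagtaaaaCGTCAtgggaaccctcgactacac
Ednra intron: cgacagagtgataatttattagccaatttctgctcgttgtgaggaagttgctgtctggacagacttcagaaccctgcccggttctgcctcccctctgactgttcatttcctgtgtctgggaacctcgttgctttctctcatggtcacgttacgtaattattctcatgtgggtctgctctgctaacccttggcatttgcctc
Agtr1a intron: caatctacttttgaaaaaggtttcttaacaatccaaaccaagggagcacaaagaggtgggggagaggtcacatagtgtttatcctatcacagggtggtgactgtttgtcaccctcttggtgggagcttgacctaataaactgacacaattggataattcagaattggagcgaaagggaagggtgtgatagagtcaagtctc
The Chrm2 window held 2 TEAD matches and 2 CRE half-sites, and the other two windows held no match. A further AP-1 match lay within 150 bp of the Chrm2 summit, outside the printed part.

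The next 2 were chosen after their values were seen. They are the 200 bp before the annotated start of Ednra, which had promoter peaks in all 6 lists, and the stretch around the summit upstream of Oxtr, which had the highest promoter pileup of the PBRM1 lists: Ednra, chr8:77724465-77724664, minus strand, then Oxtr, chr6:112490924-112491124, minus strand.
Ednra before the start: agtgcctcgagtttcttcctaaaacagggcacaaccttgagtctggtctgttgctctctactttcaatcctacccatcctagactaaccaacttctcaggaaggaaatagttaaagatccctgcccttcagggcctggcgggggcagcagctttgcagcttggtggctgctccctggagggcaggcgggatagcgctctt
Oxtr upstream: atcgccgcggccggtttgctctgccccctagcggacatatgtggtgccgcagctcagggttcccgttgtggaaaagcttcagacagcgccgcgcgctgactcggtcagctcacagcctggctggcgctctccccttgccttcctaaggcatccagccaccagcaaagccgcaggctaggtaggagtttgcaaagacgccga
Neither stretch held a match to any motif, which says only that these letters are not in these windows. Other receptor genes did have matches in the 200 bp before the start. *Chrm2* had a GC box (37.5% of protein-coding genes), *Avpr1a* had a TATA box (9.29%), and *Avpr1a* and *Tacr1* had a CRE half-site (17.2%).

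The PBRM1 lists rested on 18126049 to 23992352 fragments each and the BRG1 lists on 14284532 to 15897724, as given in the file headers. Every PBRM1 library was thus deeper than every BRG1 library, so depth and antibody cannot be told apart here. Heights are given as normalized pileup, the number of fragments that cover the summit per 1000000 fragments of that library. The lowest pileup in a list was 6 to 8 fragments, or a normalized pileup of 0.333 to 0.42, so a site without a peak may hold signal below that level and is not a site at 0. Of 8 smooth muscle markers, 4 (*Acta2*, *Tagln*, *Smtn* and *Mylk*) had promoter peaks in all 6 lists, where 41.4% of protein-coding genes did. *Cnn1* had none, and the remaining smooth muscle markers had them in some lists only. No marker of epithelium (7 genes), endothelium (3 genes) or leukocytes (2 genes) had promoter peaks in all 6. *Kdr*, an endothelial receptor, had them in 2 PBRM1 and 3 BRG1 lists, and of the epithelial genes *Cdh1* had them in 1 PBRM1 and 2 BRG1 lists, *Krt8* in 1 and 1 and *Krt18* in 1 and 0. *Pecam1*, another endothelial gene, had one in 1 PBRM1 list. *Kit*, one of 2 markers of interstitial cells of Cajal, had them in all 6. In these bulk samples a site open in few cells and weak cutting in many cells cannot be told apart.

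*Ednra* and *Agtr1a* were the receptor genes with promoter peaks in every list. *Chrm2* had a promoter peak in each PBRM1 list and in no BRG1 list, and *Ednrb* had one in each BRG1 list and in 1 PBRM1 list. Over the 9 genes, 3 had a promoter peak in all PBRM1 lists, 3 in all BRG1 lists and 2 in all 6, where 43.8%, 49.6% and 41.4% of protein-coding genes did. At least 1 promoter peak was found at 8 of the 9, against a background of 65.1%. *Tacr2* was without a promoter peak in every list.

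**Figure D1:**
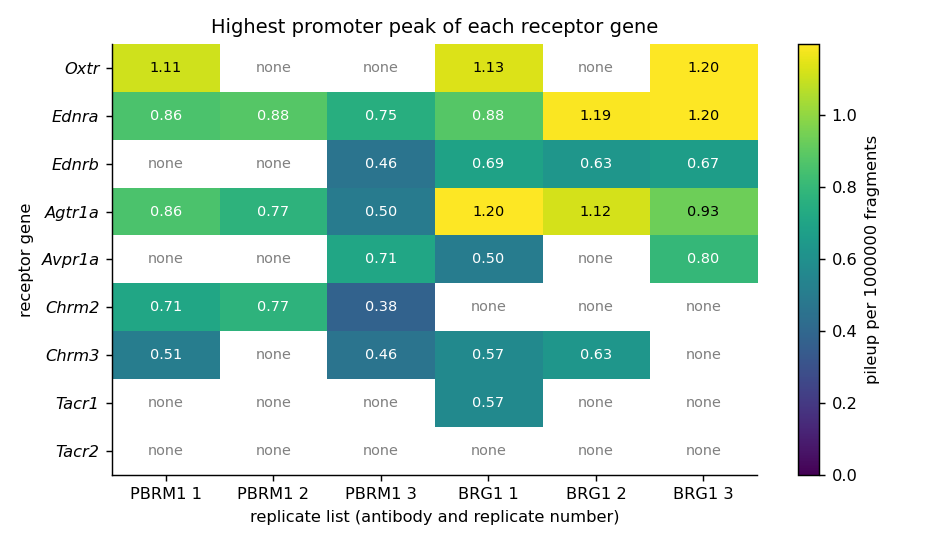
Height of the highest promoter peak of each receptor gene (rows) in each replicate list (columns), as pileup per 1000000 fragments (normalized pileup), with "none" where no promoter peak was called. *Ednra* and *Agtr1a* are filled in all 6 lists, *Chrm2* only in the 3 PBRM1 lists, and *Tacr2* in none.

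The endothelin receptors bind the vasoconstrictor peptides of the endothelin family. The *Ednra* promoter region (chr8:77723705-77724736, 1032 bp) reached from before the start into the first part of the gene, with its summit 285 bp past the start, and overlapped an *Ednra* exon. It also lay within 2 kb of a start of *4933431K23Rik*, a noncoding gene that runs across *Ednra* on the opposite strand. Its normalized pileup was 0.859, 0.883 and 0.750 in PBRM1 replicates 1 to 3, and 0.881, 1.19 and 1.20 in BRG1 replicates 1 to 3. The lowest BRG1 library fell within the range of the PBRM1 libraries, so the groups overlapped. An intronic *Ednra* region (chr8:77711710-77712411) with its summit 12.49 kb past the start had a peak in 5 lists. There the values were 1.06 and 0.875 in PBRM1 replicates 1 and 3, and 0.818, 1.26 and 0.931 in the BRG1 replicates, and PBRM1 replicate 2 had no peak. The pooled PBRM1 peak had a pileup of 63 fragments, and its q-value was stronger than that of 92.9% of peaks in the pooled PBRM1 list. The remaining *Ednra* regions, one 13119 bp before the start and one 39.86 kb past it, were called in PBRM1 replicate 1 alone.

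*Ednrb*, the receptor that endothelins use in endothelium, melanocyte precursors and enteric glia as well as in muscle, had 2 promoter regions next to each other, chr14:103843908-103844331 and chr14:103843289-103843686. The first had normalized pileup of 0.629 and 0.630 in BRG1 replicates 1 and 2 and no PBRM1 peak. The second had 0.692 and 0.665 in BRG1 replicates 1 and 3 and 0.459 in PBRM1 replicate 3. Between them every BRG1 list held a promoter peak, while PBRM1 replicates 1 and 2 did not. The pooled PBRM1 list held peaks of 18 and 20 fragments at these regions, and 1 pooled BRG1 peak of 31 fragments covered both. Of protein-coding genes, 0.748% had promoter peaks in 3 BRG1 and 0 PBRM1 lists, and no receptor gene had that exact pattern. The glial markers *Sox10* and *S100b* were without promoter peaks. Of the 3 endothelial markers, *Kdr* had them in 2 PBRM1 and 3 BRG1 lists and *Pecam1* in 1 PBRM1 list, and none had them in all 6. Whether other cells gave the *Ednrb* signal was not tested.

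*Agtr1a*, the receptor for angiotensin II, had 5 regions. Its promoter region (chr13:30336417-30336929, 513 bp, summit 114 bp past the start, in an exon) had normalized pileup of 0.859, 0.772 and 0.500 in PBRM1 replicates 1 to 3 and 1.20, 1.12 and 0.931 in BRG1 replicates 1 to 3. All BRG1 libraries were above all PBRM1 libraries. In the intron that holds the printed window, a region with its summit 32.4 kb past the start (chr13:30368417-30369386) had a peak in every list but that of BRG1 replicate 2. The PBRM1 summits lay at 32.324 to 32.401 kb, inside the printed window. Those of BRG1 replicates 1 and 3 lay at 32.132 and 32.084 kb, outside it. Values there were 0.505, 0.607 and 0.500 for PBRM1 and 0.503 and 0.466 for BRG1 replicates 1 and 3, which is close to the lowest pileup of each list. This region lay within 2 kb of the start of *Gm48161*, a noncoding gene inside the intron. A pair of regions near 6 kb, chr13:30342297-30342543 and chr13:30342730-30342979, had peaks in PBRM1 replicates 1 and 3 (1.01 and 0.875, then 0.859 and 0.750) and in no BRG1 replicate. In the pooled lists 1 PBRM1 peak of 50 fragments covered the pair, and a BRG1 peak of 25 fragments was found at the first and none at the second.

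*Oxtr* binds oxytocin and *Avpr1a* binds arginine vasopressin, 2 closely related peptides. The *Oxtr* region printed above (chr6:112490782-112491152) had its summit 1081 bp before the start and no annotated exon or other gene within it. Normalized pileup was 1.11 in PBRM1 replicate 1, 1.13 in BRG1 replicate 1 and 1.20 in BRG1 replicate 3, and the other 3 lists had no peak there. Of the promoter peaks at the receptor genes, these were among the highest, yet they were found in 3 of 6 lists. The pooled lists had 51 PBRM1 fragments and 48 BRG1 fragments at the site, with q-values stronger than those of 91.4% and 85.2% of peaks in the same list. A distal peak 11333 bp before the start was called in PBRM1 replicate 1 alone, at 0.455.

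*Avpr1a* had weak promoter calls and a stronger site past its end. Its promoter regions gave 0.503 in BRG1 replicate 1 at one position, and 0.709 in PBRM1 replicate 3 and 0.798 in BRG1 replicate 3 at another. A distal region with its summit 5.16 kb past the start (chr10:122453551-122454306), beyond the 4.95 kb gene, had 0.993 and 1.21 in PBRM1 replicates 2 and 3 and 1.33 in BRG1 replicate 2. The last value is the highest at any of the 30 regions. This site lay within 2 kb of the annotated start of *Gm48878*, a transcript of unknown coding status, and which gene it belongs to was not tested.

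The bases within 100 bp of that summit, chr10:122453558-122453758 on the plus strand, are printed because they carry this highest value, a choice made after the values were seen.
Avpr1a past the gene end: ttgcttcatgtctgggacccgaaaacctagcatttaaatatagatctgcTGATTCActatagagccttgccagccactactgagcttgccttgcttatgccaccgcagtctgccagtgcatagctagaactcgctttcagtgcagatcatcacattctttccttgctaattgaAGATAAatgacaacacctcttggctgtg
They held 1 AP-1 match and 1 GATA match.

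*Chrm2* was the receptor gene at which the lists of the antibodies differed most at the promoter. The promoter region (chr6:36387999-36388432) had its summit 138 bp past the start, in an exon of *Chrm2*, and also lay within 2 kb of a start of the noncoding gene *9330158H04Rik* on the opposite strand. PBRM1 replicates 1 to 3 had normalized pileup of 0.707, 0.772 and 0.375, and no BRG1 replicate had a peak. The value of 0.375, from 9 fragments, was below the lowest pileup of any peak in BRG1 replicates 1 to 3 (0.377, 0.42 and 0.399). The pattern of 3 PBRM1 lists and no BRG1 list was shared by 23 protein-coding genes, or 0.105%. The pooled BRG1 list did hold a peak at the site, with 21 fragments or a normalized pileup of 0.464, beside 34 fragments or 0.549 in the pooled PBRM1 list. A BRG1 peak was thus called at this site on the pooled libraries, though on none of them alone. All BRG1 libraries had fewer fragments than all PBRM1 libraries, and the part of depth in this pattern was not tested.

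The other *Chrm2* region of note was the distal region printed first (chr6:36541321-36541707), 153.39 kb from the start and past the end of the 140.0 kb gene, in no annotated gene. All 6 lists had a peak there. Normalized pileup was 0.505, 1.10 and 0.709 in the PBRM1 replicates and 0.503, 0.770 and 0.665 in the BRG1 replicates. The ranges of the antibodies overlapped. It was the single distal region among 19 with a peak in every list.

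*Chrm3*, whose product is the muscarinic receptor that contracts smooth muscle, spans 485.0 kb and had the most regions, 7. None was found in more than 3 lists. Its 2 promoter regions gave 0.459 in PBRM1 replicate 3 and 0.566 in BRG1 replicate 1 at 220 bp before the start, and 0.505 in PBRM1 replicate 1 and 0.630 in BRG1 replicate 2 at 1.16 kb past it. So 4 lists held a promoter peak, each at one of these places. The best-supported distal regions had pooled BRG1 summits 14.71, 377.22 and 478.31 kb past the start, with 3 lists each. The highest value among them was 1.10 in PBRM1 replicate 2 in the first region. That region joined unlike summits, at 15.25 and 15.289 kb in PBRM1 replicates 2 and 3 and at 14.674 kb in BRG1 replicate 2. By the levels of all 6 libraries, the protein-coding genes most like *Chrm3* were *Gabrg3*, *Car10* and *Eda*, at distances of 0.933, 1.12 and 1.19 (Euclidean distance of log2(level + 0.1) over 6 libraries, where the level is defined with the order of the genes below). Their windows were long as well, 711, 544 and 465 kb, and their levels low, 0.109 to 0.433. The part of window length in this likeness was not tested.

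The tachykinin receptors, which bind substance P (*Tacr1*) and neurokinin A (*Tacr2*), had the fewest sites. *Tacr1* had 1 region, a promoter peak with a normalized pileup of 0.566 in BRG1 replicate 1, in a window of 197.8 kb. *Tacr2* had 1 region, a distal peak of 0.840 in BRG1 replicate 2, 4544 bp before the start. Neither gene had a peak in any PBRM1 replicate list.

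**Figure D2:**
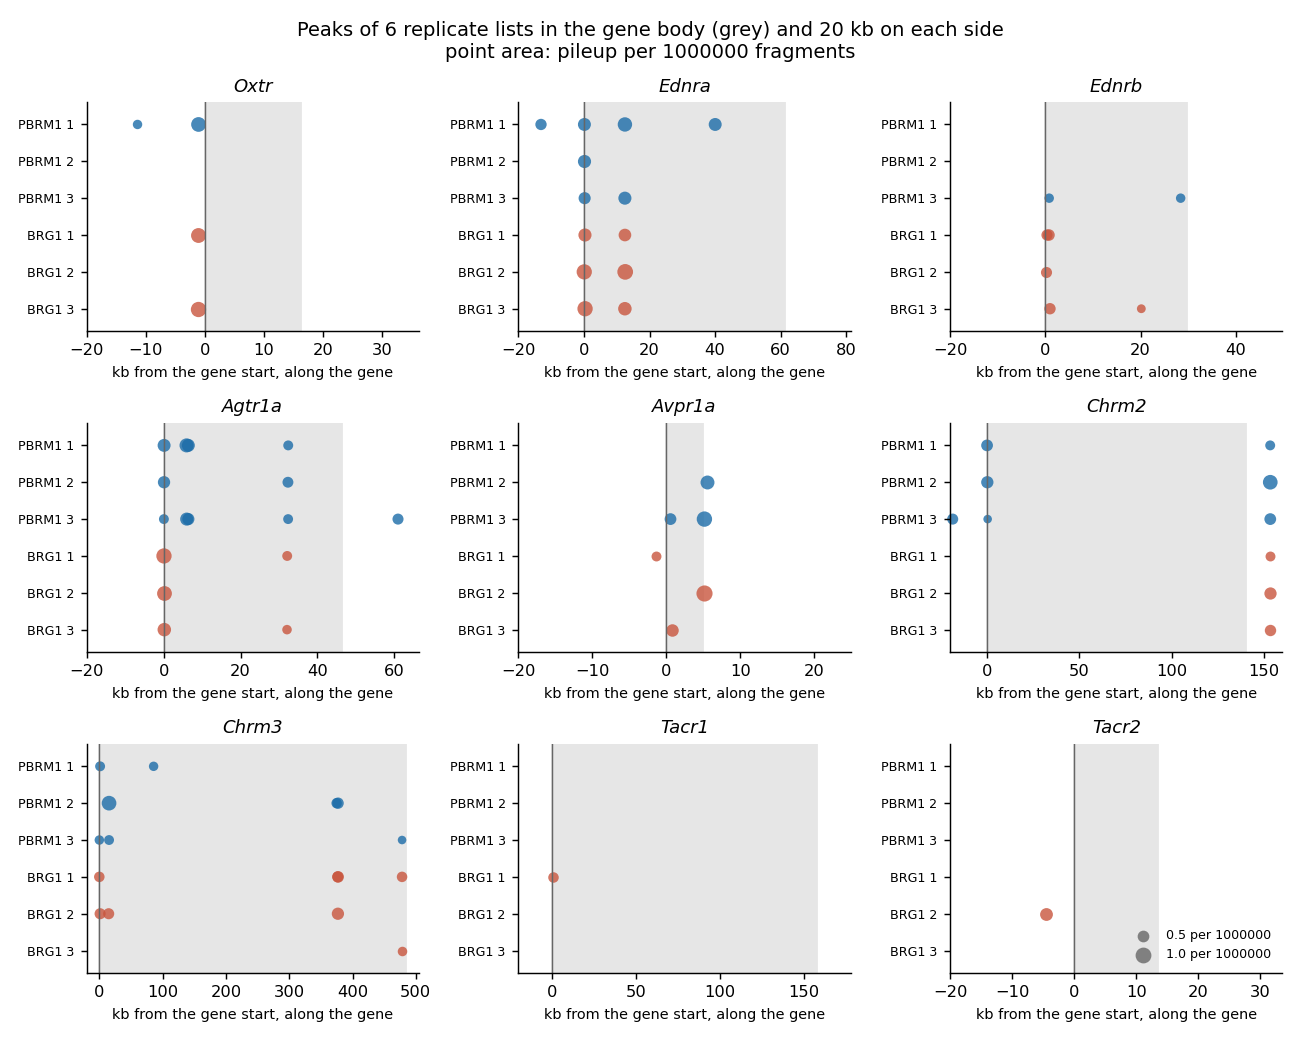
Position of each peak summit in the windows of the 9 receptor genes, in kb from the gene start along the direction of the gene, for the 6 replicate lists (rows). Blue points are PBRM1, red points BRG1, point area is normalized pileup and grey is the gene body; columns of points at *Ednra*, *Agtr1a* and past the end of *Chrm2* are the regions found in 5 or 6 lists.

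Support varied over the 30 regions: 3 had a peak in all 6 lists, 2 in 5, none in 4, 7 in 3, 6 in 2 and 12 in 1 list. Among the 61527 regions in windows of protein-coding genes, 18% were called in every list and 45.4% by a single list. At least 1 region in all 6 lists was found in the windows of 3 of the 9 genes, where 58.5% of protein-coding genes had one. Peaks of both antibodies were found at 14 regions, PBRM1 alone at 11 and BRG1 alone at 5, against backgrounds of 25.1% for PBRM1 alone and 29.7% for BRG1 alone. These counts do not take into account that the PBRM1 libraries were deeper. Of the 11 regions with PBRM1 alone, 10 were distal, where 19 of all 30 regions were. In the genome 57376 of the 82959 regions were distal by a stricter rule, away from the starts of all genes. By that rule the *Agtr1a* region near *Gm48161* and the *Avpr1a* region near *Gm48878* would not be distal. The pooled BRG1 list held a peak at 8 of the 11 regions with PBRM1 alone, and the pooled PBRM1 list at 2 of the 5 with BRG1 alone.

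The number of receptor regions per library did not separate the antibodies. PBRM1 replicates 1 to 3 had 14, 9 and 17 of the 30 regions, and BRG1 replicates had 13, 10 and 10. The means were 13.3 ± 4.04 and 11.0 ± 1.73 (SD, n = 3 each; exact two-sided permutation p = 0.6). The distal regions alone numbered 9, 6 and 11 for PBRM1 and 5, 6 and 5 for BRG1 (exact permutation p = 0.2). Receptor genes with a promoter peak numbered 5, 3 and 6 for PBRM1 and 7, 4 and 5 for BRG1 (exact permutation p = 0.8). With 3 libraries against 3, no p below 0.1 was possible. Within each antibody the library with the most fragments had the most regions, PBRM1 replicate 3 with 23992352 and BRG1 replicate 1 with 15897724. Between antibodies, every PBRM1 library had more fragments than every BRG1 library. The part of depth in these counts was not tested and cannot be told apart from that of the antibody.

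Called on pooled libraries, the windows held 40 PBRM1 peaks and 39 BRG1 peaks. Of these, 16 and 22 overlapped no peak of a replicate of the same antibody, 15 and 8 overlapped 1 replicate, 4 and 4 overlapped 2, and 5 and 5 overlapped all 3. In the pooled lists 7 receptor genes had a promoter peak of PBRM1 and 8 had one of BRG1, where 65.4% and 67.3% of protein-coding genes did.

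Heights were compared between antibodies at the regions with a peak in every list. In the genome 12830 regions qualified, and limma with Benjamini-Hochberg adjustment called 52.9% of them higher for BRG1 and 0.413% higher for PBRM1, with a median log2 difference of 0.485 in favor of BRG1. The *Agtr1a* promoter was higher for BRG1 by 0.64 ± 0.23 on the log2 scale (SE, n = 3 each; limma adjusted p = 0.0164). Its groups did not overlap, as at 56.8% of the 12830 regions in this direction and 0.756% in the other. After the medians of the libraries were made equal the difference was 0.17 (limma adjusted p = 0.696), and without PBRM1 replicate 3 it was 0.40 (limma adjusted p = 0.177). The *Ednra* promoter differed by 0.38 ± 0.22 (limma adjusted p = 0.138) and, with medians made equal, by -0.09. The distal *Chrm2* region differed by -0.21 ± 0.24 (limma adjusted p = 0.469), and by -0.67 with medians made equal (limma adjusted p = 0.0963). The call at *Agtr1a* was therefore lost once the shift shared by the genome was removed. Heights of the antibodies are on a common scale only as far as their efficiencies are alike, which these files do not measure.

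**Figure D3:**
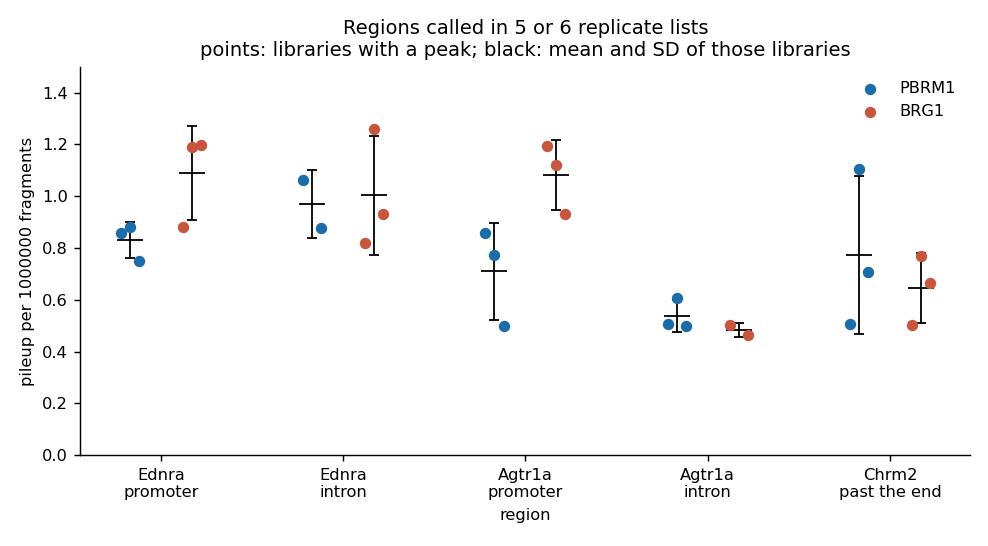
Pileup per 1000000 fragments at the 5 receptor regions with a peak in 5 or 6 lists, with a point for each library that had a peak and the mean and SD of those points in black (2 points for PBRM1 at the Ednra intron and for BRG1 at the Agtr1a intron, 3 elsewhere). Only at the Agtr1a promoter do the antibodies not overlap among the regions called in all 6 lists.

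For a level that uses all peaks, the normalized pileup was summed over each window and divided by its length in units of 100 kb, with a library without a peak counted as 0. The order by mean of 6 libraries was *Agtr1a* 2.33 (range 1.30 to 3.76), *Avpr1a* 2.05 (0 to 4.26), *Ednra* 2.01 (0.870 to 3.39), *Oxtr* 1.15 (0 to 2.78), *Ednrb* 0.939 (0 to 1.89), *Chrm2* 0.623 (0.279 to 1.04), *Chrm3* 0.303 (0.0886 to 0.467), *Tacr2* 0.261 (0 to 1.57) and *Tacr1* 0.0477 (0 to 0.286). Over the 6 libraries, the range of each gene overlapped that of the next in this order. Within a single antibody some neighbors did not overlap. The PBRM1 levels of *Chrm2* (0.672 to 1.04) lay above those of *Chrm3* (0.183 to 0.441), which lay above those of *Tacr2* (0 in each library). The BRG1 levels of *Ednrb* (0.903 to 1.89) lay above those of *Chrm2* (0.279 to 0.427). The other comparisons of neighbors within an antibody overlapped. The median of the 9 was 0.939 beside 2.77 over all protein-coding genes, and even *Agtr1a* was above no more than 45.3% of genes. Window length was not matched in this comparison. Without peaks within 2 kb of a start of another gene, *Ednra* came to 1.06 and *Avpr1a* to 0.745.

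*Chrm2* was the one receptor gene whose window levels did not overlap between antibodies. They were 0.672, 1.04 and 0.948 for PBRM1 and 0.279, 0.427 and 0.369 for BRG1 (exact two-sided permutation p = 0.1, the smallest possible). Windows with all PBRM1 levels above all BRG1 levels made up 0.843% of protein-coding genes, and the reverse 32.7%. The *Chrm2* promoter, called for PBRM1 alone, is part of this sum. All PBRM1 libraries were deeper than all BRG1 libraries, and the part of depth was not tested.

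**Figure D4:**
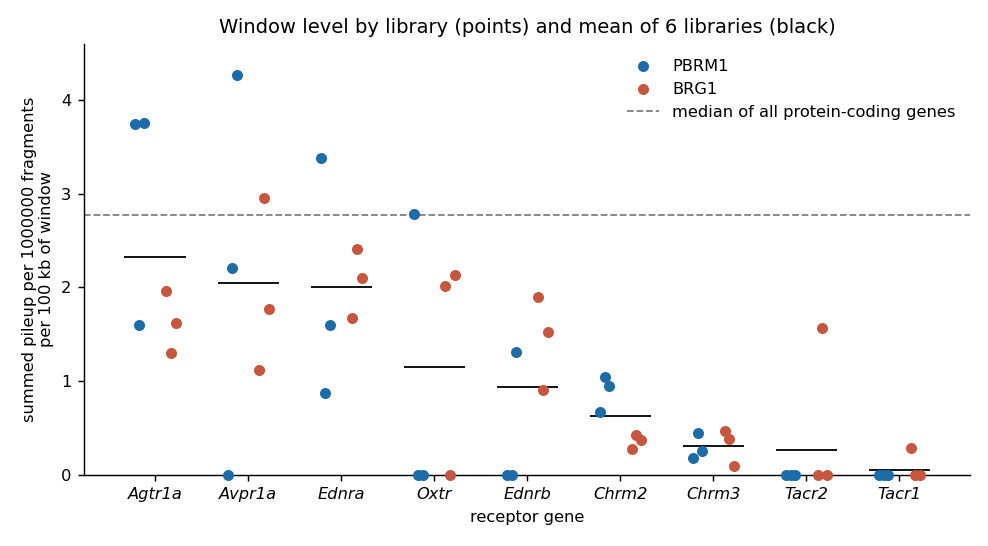
Window level of each receptor gene (summed pileup per 1000000 fragments, per 100 kb) in each library, blue for PBRM1 and red for BRG1, with the mean of 6 libraries as a black line and the median of all protein-coding genes, 2.77, as a dashed line. All 9 means lie below the dashed line, and only at *Chrm2* are the colors separate.

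Promoter peaks of these proteins were more frequent at CpG-rich starts in the genome. The ratio of observed to expected CpG within 500 bp of the start was at least 0.6 at 10083 genes, of which 67.5% had promoter peaks in all 6 lists and 5.76% in none. It was below 0.6 at 11855 genes, of which 19.3% had them in all 6 lists and 59.6% in none. *Chrm3* (0.75), *Avpr1a* (0.71) and *Oxtr* (0.64) were in the CpG-rich class, and each of these 3 had promoter peaks in 3 or 4 lists, none in all 6. *Agtr1a* (0.55) and *Ednra* (0.39) were in the CpG-poor class and had them in all 6. The other 4, *Chrm2* (0.59), *Ednrb* (0.54), *Tacr2* (0.39) and *Tacr1* (0.32), were CpG-poor and did not, with *Tacr2* in no list and *Tacr1* in 1. The CpG-poor class was not uniform. Of genes with a ratio of 0.4 to 0.6, where *Agtr1a*, *Ednrb* and *Chrm2* lie, 44.2% had promoter peaks in all 6 lists. Of genes at 0.2 to 0.4, where *Ednra*, *Tacr1* and *Tacr2* lie, 16.7% did. The receptor counts are over few genes and were not tested.

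**Figure D5:**
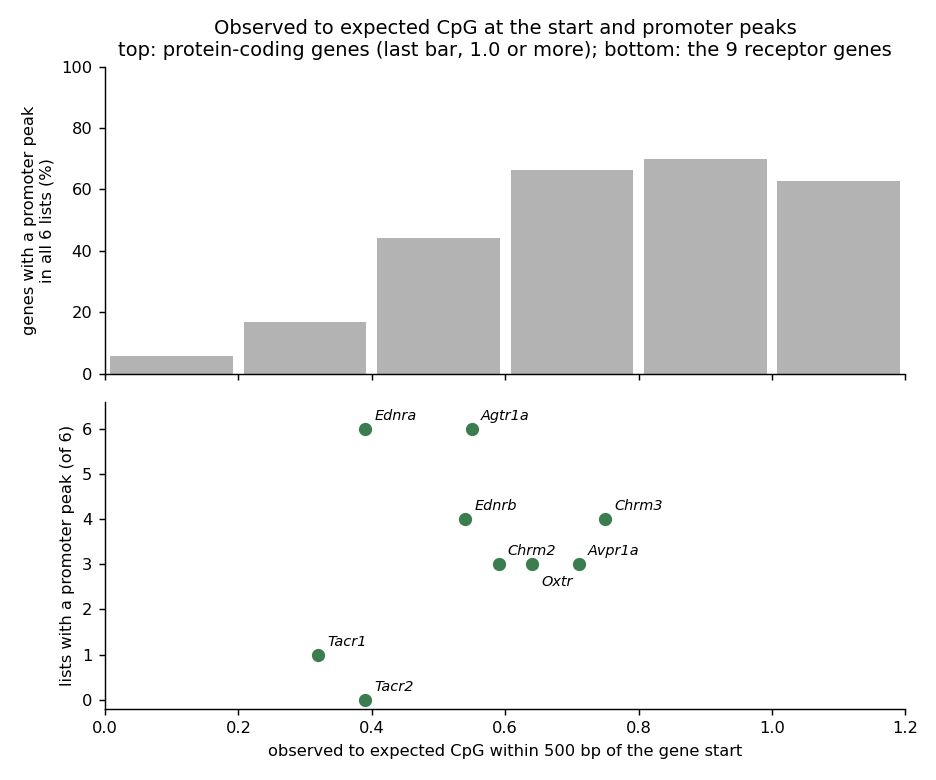
Top, percent of protein-coding genes with a promoter peak in all 6 lists by observed to expected CpG within 500 bp of the gene start. Bottom, number of lists with a promoter peak (of 6) for each receptor gene on the same horizontal axis; *Ednra* at 0.39 and *Agtr1a* at 0.55 reach 6 lists, while *Oxtr*, *Avpr1a* and *Chrm3* at 0.64 or more reach 3 or 4.

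Motifs within 150 bp of the summits of the 30 regions were near their background. AP-1 was found at 6 of 30 regions (18.6% of all regions in the genome) and TEAD at 6 of 30 (19.8%). All 6 AP-1 matches were in regions distal to their own receptor gene, 6 of 19. In the genome 22.4% of regions away from the starts of all genes had one. The *Avpr1a* region near the start of *Gm48878* is among the 6, so the sets are not alike. A CArG box was found at 1 region, near the pooled BRG1 summit of the *Chrm3* region 14.71 kb past the start (1.8% of regions). The PBRM1 summits of that region lay outside the bases searched. NFI and the steroid receptor element were found at none (0.0542% and 0.102% of regions).

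The genes on either side of the receptors in the pathway were read from lists of 15 ligands and ligand-processing enzymes, 8 relatives in the same receptor families and 23 signal transducers. Promoter peaks in all 6 lists were found at 3 of 15 ligand genes, *Edn1* (endothelin 1), *Ece1* (the enzyme that activates it) and *Lnpep* (an aminopeptidase that degrades oxytocin), while *Oxt*, *Edn3*, *Agt*, *Ace*, *Avp* and *Chat* had none. Of the 8 relatives, 0 had them in all 6 lists, and 7 had none: *Agtr1b*, *Agtr2*, *Avpr1b*, *Avpr2*, *Chrm4*, *Chrm5* and *Tacr3*. Of the 23 transducers, 13 had promoter peaks in all 6 lists and 0 had none. Among the 13 were *Gna11* and *Gna12*, which encode G protein alpha subunits, *Gnai2* (the Gi subunit), *Plcb3* (phospholipase C), *Itpr1* (the calcium release channel) and *Arhgef1* (an activator of RhoA). Set beside the 41.4% of all protein-coding genes, the counts were 2 of 9 for the receptors, 3 of 15, 0 of 8 and 13 of 23. *Gnaq*, which encodes the Gq subunit itself, had promoter peaks in 2 PBRM1 and 3 BRG1 lists.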

How the data were processed

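The files were 8 peak lists, 1 for each of the 6 replicate libraries and 1 for each antibody on pooled replicates. Per the labels, reads were trimmed with cutadapt, aligned with Bowtie2 to GRCm38.p5, and peaks called with MACS2. Per the file headers, the authors used MACS 2.2.7.1 on paired-end fragments with a q cutoff of 0.05, no control file and every fragment kept at that step. Removal of duplicates before it is not given in the sources used here. Without a control, sites cut in open chromatin whatever the antibody could be called too.

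The deposited pileup is signal: the coverage by fragments at the summit, unscaled. The fold enrichment deposited beside it is the ratio of that coverage to the expected local one. The deposited q-value is on the −log10 scale. From these, pileup was divided by the number of fragments in each header (14284532 to 23992352) and multiplied by 1000000. Peaks on the autosomes, X and Y were merged with Python 3.11.15, numpy 2.4.6 and pandas 2.3.3; where a list had several peaks in a region, the highest was used. Genes came from GENCODE M21 and sequence from GRCm38.p6 read with pysam 0.24.0. Heights at regions in all 6 lists were tested on log2 normalized pileup with limma 3.58.1 (trend, R 4.3.3), which was tested on simulated data, and counts by exact two-sided permutation of libraries.

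The members and the lists were chosen with earlier results of these data known. Named sites were all promoter regions, distal regions in all 6 lists and the best-supported distal region of other genes. Pathway genes were named where promoter peaks were in all 6 lists or in none, with at most 12 a list, where the plan had been at most 12 in all. *Gnaq*, *Kdr* and the *Avpr1a* and *Oxtr* windows were picked with their values in view. Alternatives covered the window, the promoter distance, the q cutoff, list length, merging, scaling and each replicate left out. One marker gene and one promoter sequence are not reported here.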

Additional observations from a re-analysis of the deposited data

How the results depend on the processing

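With peaks restricted to a −log10 q of at least 5, the receptor genes with a promoter peak in every list fell to 0 for PBRM1, 1 for BRG1 and 0 for both, the regions in every list to 0, and the genome regions higher for PBRM1 to 12. On the pooled lists these receptor counts were 7, 8, 7 and 27, since each antibody is then 1 list. Equal medians gave 314 genome regions higher for BRG1 and 288 for PBRM1, in place of 6793 and 53, so the share higher for BRG1 went from 99.2% to 52.2% of calls, and the *Ednra* promoter turned to -0.09. Fold enrichment gave 1371 and 28, and summed peaks gave 35 higher for PBRM1.

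Leaving out each library in turn, promoter peaks in every PBRM1 list were found at 3 to 4 genes, in every BRG1 list at 3 to 5 (5 without BRG1 replicate 2) and in both at 2, with 3 to 4 regions in every list. The PBRM1 minus BRG1 difference ranged from -1.33 to 0.167 for genes with a promoter peak and from 0.5 to 4.5 for regions. Genome regions higher for BRG1 ranged from 5182 to 6844 and for PBRM1 from 31 to 77, the *Agtr1a* promoter from 0.40 to 0.79, *Ednra* from 0.31 to 0.53 and distal *Chrm2* from -0.47 to 0.09, positive without PBRM1 replicate 2. The median window level ranged from 0.748 to 1.13, an alternative chosen after seeing the data. The *Agtr1a* call was also lost without BRG1 replicate 1, with fold enrichment, with summed peaks and in the exact permutation test, whose smallest p is 0.1. The causes of these changes were not tested.

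The labels give both antibodies the replicate numbers 1 to 3. Deviations from the group means of libraries with the same number correlated at 0.00, 0.00 and -0.03 over 12830 regions. Those of libraries with unlike numbers correlated at -0.03 to 0.03. No pairing by number was seen at these regions, which does not show whether libraries of the same number share a mouse or preparation. The replicate block gave 6589 regions higher for BRG1 and 50 for PBRM1, with the *Agtr1a* promoter at 0.64 (limma adjusted p = 0.0162). By the rule used, 192 values under these alternatives, some of them given above, counted as unchanged. A difference had to keep its side of the threshold without a change of sign. A level had to stay within the SD, a count within 1.5 times, and a rank had to be equal. Values that fell to 0 could pass. The difference in genes with a promoter peak went from -0.667 to 0 with a promoter distance of 1 kb. The window levels of *Tacr1* without BRG1 replicate 1 and *Tacr2* without BRG1 replicate 2 were 0. Some of the counts taken as unchanged lost *Chrm2*. With an equal number of strongest peaks in each list, 2 genes kept a promoter peak in every PBRM1 list and 2 regions a peak in every list. Both counts were of *Ednra* and *Agtr1a*. A window of 10 kb each side also left 2 regions in every list, without the distal *Chrm2* region. In the order by window level, *Oxtr*, *Ednrb* and *Avpr1a* exchanged ranks 2, 4 and 5 without peaks near a start of another gene, and *Oxtr* and *Ednrb* exchanged ranks 4 and 5 with fold enrichment. The weakest peaks rested on 6 to 8 fragments, so a site below that level is not called at this depth.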
